A study of Rattus with 4 samples.

Results

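In H9C2, a rat heart myoblast line of embryonic origin, 414 of 10804 deposited RBM25 peaks touched the 5' UTR of an annotated gene on its own strand. They were taken by annotation alone: a peak counted when any fraction of it was given as 5' UTR, in the peak list of either RBM25 immunoprecipitate (IP). Replicate 1 gave 132 such peaks of 2696 and replicate 2 gave 282 of 8108. The 4 samples are 2 RBM25 IPs and 2 inputs from ultraviolet-irradiated H9C2 cells, and RNA was digested with micrococcal nuclease before paired-end sequencing of stranded libraries. The sample labels give the treatment as IP or input and do not state whether these cells carried extra RBM25. Inputs were not analysed here, so each value below comes from 1 list per IP.

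The 5' UTR is the stretch of an mRNA between the cap and the start codon, and it is scanned by the small ribosomal subunit during initiation. In many genes it is built from more than 1 exon, so that the first intron, and with it the first splice site bound by the U1 snRNP, lies inside or at the edge of the 5' UTR. RBM25 is an RNA-binding protein of nuclear speckles that associates with the U1 snRNP and affects the choice of splice sites. A peak here is a run of 50-nt bins with many sequenced tags. The tag value is the authors' own, whole in peaks of 51 nt and a mean over bins in longer peaks, and it is not scaled for depth. The depth of the libraries is unknown. Intervals are 95% Wilson intervals over peaks, or Newcombe intervals for differences, and cover counting error within a list. The labels do not say whether the replicates came from separate cultures, so the spread between lists may be technical.

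Among cell type markers, 4 of 6 muscle-line markers had a peak in replicate 2, Cald1, Tpm1, Vim and Acta2, and 2 of these had one in replicate 1. The other 2, Des and Myog, had none. Tnnt2 was the 1 of 4 cardiomyocyte markers with a peak, and Col1a1 and Col1a2 were the fibroblast markers with one, 2 of 4. None of 3 endothelial and none of 3 macrophage markers had a peak in either list. Peaks follow binding and RNA level together, so this is no measure of expression, and these counts do not set a muscle line apart from fibroblasts.

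What the peaks held besides 5' UTR fell into 4 main kinds. In replicate 1, 63 peaks held 5' UTR and no other annotated part, 39 held 5' UTR with intron, 17 held 5' UTR, coding sequence and intron, and 12 held 5' UTR with coding sequence. In replicate 2 the counts were 84, 82, 67 and 47. Peaks with 5' UTR alone were thus 47.7% of the members in replicate 1 (39.4 to 56.2) and 29.8% in replicate 2 (24.8 to 35.4), and these intervals do not overlap. This kind includes peaks that reach outside the annotated gene, where the rest of the peak has no annotated part. Peaks wholly in 5' UTR were 45 of 132 (34.1%, 26.6 to 42.5) and 64 of 282 (22.7%, 18.2 to 27.9), and these intervals do overlap. Coding sequence was present in 29 of 132 peaks (22.0%, 15.8 to 29.8) and in 114 of 282 (40.4%, 34.9 to 46.2). The remaining peaks were in the ribosomal protein-like gene Rps19l2, in both lists with a fraction of 0.84 in 5' UTR and 0.16 in noncoding exon, and in Nisch, where 1 bin of replicate 2 was given as all 5' UTR and all 3' UTR.

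**Figure D1:**
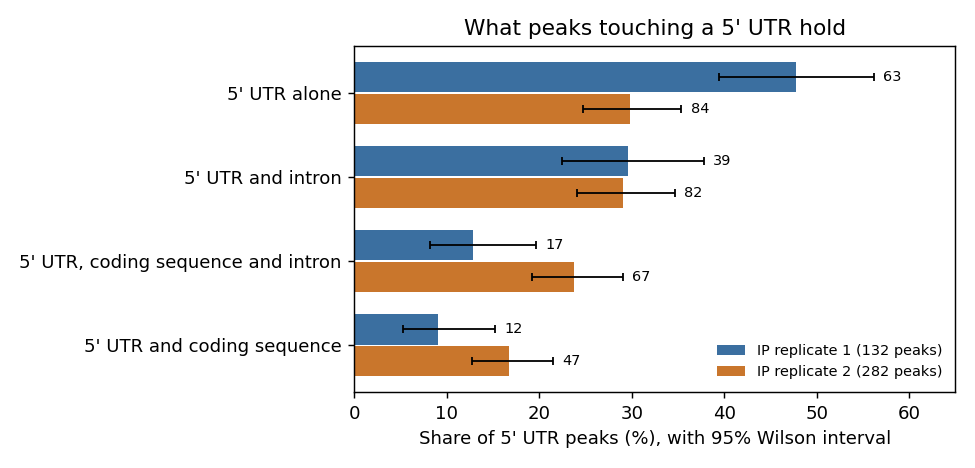
Share of peaks touching a 5' UTR (x axis, %) by what else they hold (y axis), for each IP replicate; bars are shares, lines 95% Wilson intervals and numbers the peaks, and the 3 peaks of Rps19l2 and Nisch are not drawn. Peaks with 5' UTR alone take 47.7% in replicate 1 and 29.8% in replicate 2, and peaks with intron but no coding sequence take nearly equal shares, 29.5% and 29.1%.

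The 5' UTR took a median of 71% of a peak in replicate 1 and 55% in replicate 2, from 2% to the whole peak in each. Where 5' UTR met intron without coding sequence, the median was 54% 5' UTR and 46% intron in replicate 1, and 53% and 46% in replicate 2. In peaks with all 3 parts, the median 5' UTR content was 26% and 32%. At the low end of the rule, 6 peaks of replicate 1 and 24 of replicate 2 held at most 4% 5' UTR, about 1 or 2 bases of a 51-nt bin. Among these were Atn1 and Cfl1 in both lists, and Klc1, Ywhaz and Hsp90aa1 in replicate 2. The next peaks outside the rule have no 5' UTR base. Whether the intron in a peak precedes or follows the exon was not analysed here.

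Members were a larger part of the sense genic peaks in replicate 1, 132 of 1200 (11%), than in replicate 2, 282 of 3887 (7.25%). The difference was 3.75 percentage points (1.89 to 5.79; two-sided Fisher exact test over peaks, Benjamini-Hochberg adjusted p = 0.00011 over the 9 comparisons made). Over all peaks, antisense and intergenic ones included, the difference was 1.42 points. This test compares 2 lists of unequal length, not conditions, and peaks of a list are not independent.

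The highest members differed between the lists. In replicate 1 they were led by Tra2b, the gene of a splicing activator related to SR proteins, with 62 tags at chromosome 11, 78788900 to 78788950 (mRatBN7.2, plus strand), all of it 5' UTR. Srrm2, which encodes a large scaffold protein of nuclear speckles, followed with 61 tags, also all 5' UTR, at chromosome 10, 12827300 to 12827350. Neither recurred by overlap: Srrm2 had no 5' UTR peak in replicate 2, while Tra2b had one in the next 2 bins with 24 tags. Next among genes with a symbol in replicate 1 came Atn1 with 56 tags, Srsf7 with 47, Crim1 with 42, Arhgef5 and Cyth3 with 38 each, Rad23b with 37, Ccdc9 with 36, and Cfl1, Suds3 and Ctsb with 35 each. Cyth3 encodes an exchange factor for ARF GTPases, and Rad23b a protein of DNA repair and proteasome delivery.

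In replicate 2 the highest member was in Supt5h, the gene of an elongation factor subunit that acts on RNA polymerase II, with 101 tags at chromosome 1, 83616800 to 83616850 (minus strand). A fraction of 0.64 of that bin was 5' UTR and 0.36 intron. Clasrp, which encodes an SR-like protein that binds the splicing kinase CLK4, had 85 tags, and Atn1, the gene of the corepressor atrophin 1, had 83. After them stood the pseudokinase gene Nrbp2 with 70.5 tags, the kinesin light chain gene Klc1 with 69, the alpha-actinin gene Actn1 and the nucleolin gene Ncl with 58 each, Snrnp70 with 55, Ccdc9 with 54, and Nbas and Ppfibp1 with 53 each. Of these genes, Supt5h, Nrbp2, Actn1, Ncl and Nbas had no 5' UTR peak in replicate 1. The Klc1 peak, at chromosome 6, 130835300 to 130835350, was mostly intron (0.90) with 0.08 coding sequence and 0.02 5' UTR, and did not recur.

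No difference in median tags between the members and the other sense genic peaks was detected. The median was 24 tags in replicate 1 (lowest 19, highest 62) against 23 in the other 1068 sense peaks, a difference of 0.06 on the log2 scale (two-sided permutation test, adjusted p = 0.90). In replicate 2 both medians were 26 tags, and the highest member had 101 tags against 261 in the other 3605 peaks. With equal medians the permutation test could give only its highest value (adjusted p = 1.0), so it says nothing about the rest of the tag distributions. By kind, medians ran from 23 (with intron) to 28 (with coding sequence and intron) in replicate 1 and from 24.5 (5' UTR alone) to 27 (with coding sequence and intron) in replicate 2, within the middle range of the members, 21 to 29 and 22 to 32. Longer runs were few: 8 members of replicate 1 and 21 of replicate 2 exceeded 51 nt. The longest, at 151 nt, were in Myh9 (26 tags, replicate 1), and in Ywhae (45.7 tags) and Zfp513 (26.3 tags) in replicate 2. Myh9 encodes a nonmuscle myosin heavy chain and Ywhae a 14-3-3 protein.

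A peak was called recurrent when it shared at least 1 bin with a peak of the other IP on the same strand. In replicate 1, 78 of 132 members recurred (59.1%, 50.6 to 67.1), against 64.6% of all sense genic peaks of that list. In replicate 2, 78 of 282 did (27.7%, 22.8 to 33.2), against 19.9% of all sense genic peaks. Set against the other sense peaks, members of replicate 1 recurred 6.17 percentage points less often without passing the test (interval 15.1 points less to 2.35 more; Fisher exact adjusted p = 0.23). Members of replicate 2 recurred 8.38 points more often (3.31 to 14.0; Fisher exact adjusted p = 0.0016). Both directions count largely the same overlaps: 78 members stood among 775 recurrent sense peaks of replicate 1 and 78 among 773 of replicate 2. The 2 differences thus depend on the member share of each list, 11% and 7.25%, and are not separate from that comparison. The replicate 2 call was lost among the peaks ranked in the better 50% by deposited p-value (6.16 points, Fisher exact adjusted p = 0.11) and with overlap on either strand (5.06 points, Fisher exact adjusted p = 0.092), and the difference was 13.2 points for members at least 50% 5' UTR. In replicate 1 the difference was 11.1 points less in the better 50%. Without the peaks that reach outside the annotated gene it was 2.22 points less (Fisher exact adjusted p = 0.76). When peaks with intron were left out it turned to 4.79 points more often (Fisher exact adjusted p = 0.66). In replicate 2, leaving out peaks with intron gave 10.8 points more often (Fisher exact adjusted p = 0.012). The last 2 settings were chosen after seeing the data. Of the 78 recurrent members of replicate 1, 68 had the same start and end in replicate 2, and 76 met a peak that was itself a member; in Add1 and Sh3gl1 the partner held no 5' UTR.

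**Figure D2:**
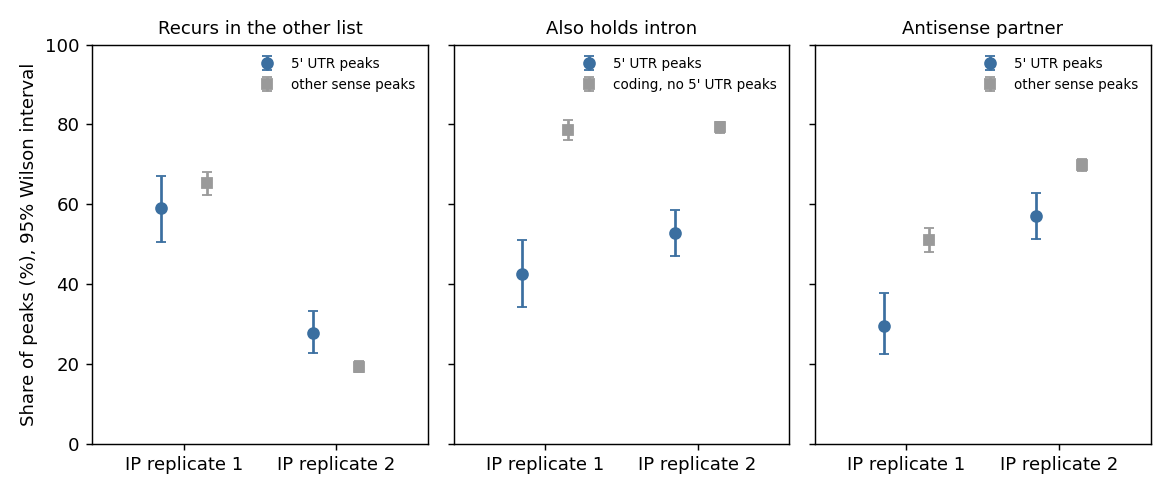
Share of peaks (y axis, %) that recur in the other list, also hold intron, or have an antisense peak in the same bin, by IP replicate (x axis); points are shares and lines 95% Wilson intervals, with 5' UTR peaks in blue and comparison peaks in grey. Recurrence of 5' UTR peaks lies below the other sense peaks in replicate 1 and above them in replicate 2, while intron content and antisense partners lie below in both.

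Tags of the 78 recurrent members were higher in replicate 2 at 57 of them, higher in replicate 1 at 15 and equal at 6, with a median ratio of 1.22; the lists are not scaled for depth, and the ratio was 1.26 at the 697 other recurrent sense peaks. Start and end were the same in 68 of the 78 pairs. The other pairs differ in position or length and enter these values and the correlations too. Across these peaks the Spearman correlation was 0.28 and the Pearson correlation 0.49, as a description over peaks that share their 2 libraries, and the Spearman correlation was 0.44 at the other recurrent sense peaks. The recurrent member with the best mean rank was in Atn1, at chromosome 4, 157561600 to 157561650 (minus strand), where replicate 1 gave 56 tags and replicate 2 gave 83; a fraction of 0.54 of it was coding sequence, 0.42 intron and 0.04 5' UTR. Srsf7, the gene of an SR protein, had 47 and 50 tags in bins all in 5' UTR from chromosome 6, 14811800. These genes stood high in both lists.

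Ccdc9 had 36 and 54 tags at chromosome 1, 76989550 to 76989600, and Clasrp had 33 and 85 at 79256300 to 79256350 of the same chromosome. Crim1, which encodes a transmembrane protein that binds bone morphogenetic proteins, had 42 and 47 tags, all in 5' UTR. Arhgef5, the gene of a guanine nucleotide exchange factor, had 38 and 43, with 0.20 of the bin in 5' UTR and 0.80 in intron. These were closer between the lists than Ccdc9 and Clasrp. The endophilin gene Sh3gl1 had 31.5 tags, a mean over 101 nt, and 47 in a shorter partner, so these values are not like for like. Rai14, which encodes an actin-associated ankyrin repeat protein, had 30 and 48 tags, and Eya4, the gene of a transcriptional coactivator, 33 and 40. The corepressor gene Suds3 had 35 tags in each list, all in 5' UTR, the SR protein gene Srsf5 28 and 46, and the ubiquitin-like modifier gene Sumo3 30 and 37. The cofilin gene Cfl1 ran the other way, with 35 tags in replicate 1 and 20 in replicate 2.

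**Figure D3:**
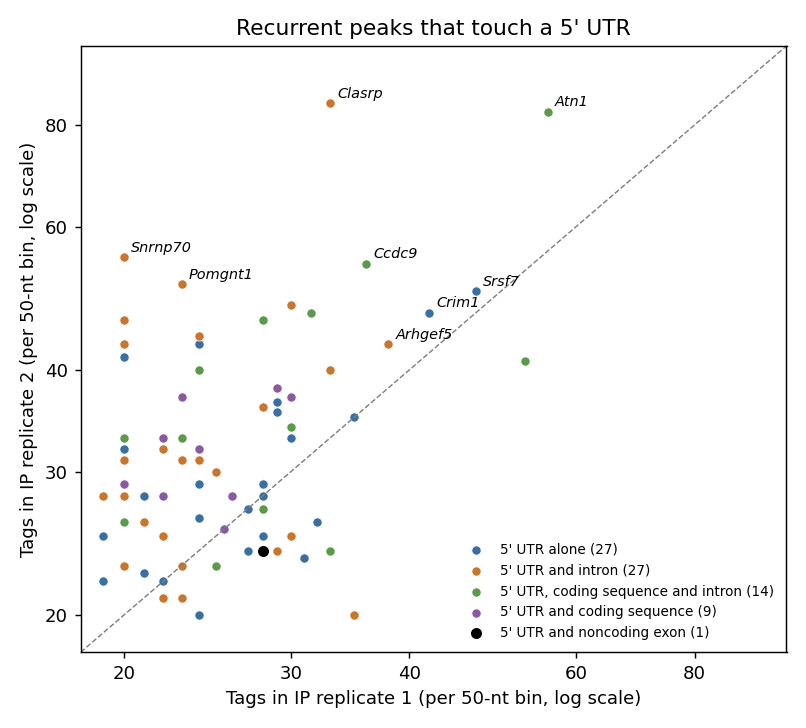
Tags of the 78 recurrent 5' UTR peaks in IP replicate 1 (x axis) and replicate 2 (y axis), per 50-nt bin on log axes; each point is a peak of replicate 1 with its partner, coloured by what the replicate 1 peak holds, and the dashed line marks equal tags. Of the 78 points 57 lie above the line, with Clasrp at 33 and 85 and Atn1 at 56 and 83 highest on the y axis.

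Intron sequence was less common in 5' UTR peaks than in coding peaks. In replicate 1, 56 of 132 members held intron (42.4%, 34.3 to 51) against 750 of 953 sense coding peaks without 5' UTR (78.7%), 36.3 percentage points less (27.3 to 44.7; Fisher exact adjusted p = 4.0e-16). In replicate 2, 149 of 282 did (52.8%, 47.0 to 58.6) against 2581 of 3254 (79.3%), 26.5 points less (20.6 to 32.5; Fisher exact adjusted p = 4.1e-20). For members at least 50% 5' UTR, which leaves less room for intron, the replicate 2 difference was 40.5 points. Without peaks that reach outside the annotated gene, a choice made after the values were seen, members held intron 29.7 and 22.8 points less often. Both kinds were picked by a fraction that shares the peak with intron, and members lie near a gene's edge more often by the rule. The rule thus shapes the outcome of these 2 tests. This contrast is therefore a description, and its p-values are no support for it. Boundary peaks with 5' UTR and intron, as in Clasrp, Snrnp70 and Arhgef5, recurred from replicate 1 in 27 of 39 cases (69.2%, 53.6 to 81.4), and those with coding sequence as well in 14 of 17 (82.4%, 59.0 to 93.8). Peaks with 5' UTR alone recurred in 27 of 63 (42.9%, 31.4 to 55.1). In replicate 2, whose list is longer, the same shares were 29 of 82 (35.4%), 16 of 67 (23.9%) and 24 of 84 (28.6%), so the kinds stood in another order. Differences between kinds were not tested.

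Antisense partners were less common at 5' UTR peaks than at the pool of other sense peaks, most of which held coding sequence. An antisense partner is a peak of the same list, labelled antisense to a gene, in a shared bin on the opposite strand. In replicate 1, 39 of 132 members had one (29.5%, 22.4 to 37.8), against 48.7% of all sense genic peaks and 545 of 1068 other sense peaks (51%), 21.5 percentage points less (12.7 to 29.2; Fisher exact adjusted p = 9.4e-06). In replicate 2, 161 of 282 did (57.1%, 51.3 to 62.7), against 69.0% of all sense genic peaks and 2521 of 3605 others (69.9%), 12.8 points less (6.99 to 18.9; Fisher exact adjusted p = 2.8e-05). The sense peaks with neither 5' UTR nor coding sequence, mostly intron alone or noncoding exon, had a partner in 42 of 115 cases in replicate 1 (36.5%, 28.3 to 45.6) and 136 of 351 in replicate 2 (38.7%, 33.8 to 43.9), so a share below that of coding peaks was not particular to 5' UTR peaks. In replicate 2 their share lay below that of the members, a difference that was not tested. In the better 50% by p-value, replicate 2 gave 9.09 points less and did not pass (Fisher exact adjusted p = 0.055). Among sense peaks without intron, also chosen after the values were seen, the difference in replicate 1 was 14.0 points (Fisher exact adjusted p = 0.048) and in replicate 2 it was 12 points (Fisher exact adjusted p = 0.031).

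Within the members, peaks with 5' UTR alone had a partner in 9 of 63 cases in replicate 1 (14.3%, 7.70 to 25) and 39 of 84 in replicate 2 (46.4%, 36.2 to 57.0). In replicate 1 this kind includes all 18 members that reached outside the annotated gene, and none of them had a partner. Peaks with 5' UTR, coding sequence and intron had a partner in 8 of 17 (47.1%, 26.2 to 69.0) and 46 of 67 (68.7%, 56.8 to 78.5). Tra2b and Srrm2, the highest peaks of replicate 1, had no antisense partner there, and Atn1 had none in either list. Srsf7 had 47 tags on each strand of replicate 1, Supt5h 101 sense and 80 antisense tags in replicate 2, Clasrp 85 and 82, and Nrbp2 70.5 and 125. Where a partner was called, the antisense strand held a median of 50% of the tags in replicate 1 (lowest 38.2%, highest 66.7%) and 49.7% in replicate 2 (28.6% to 70.6%). These medians do not cover bins where the antisense strand was not called.

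**Figure D4:**
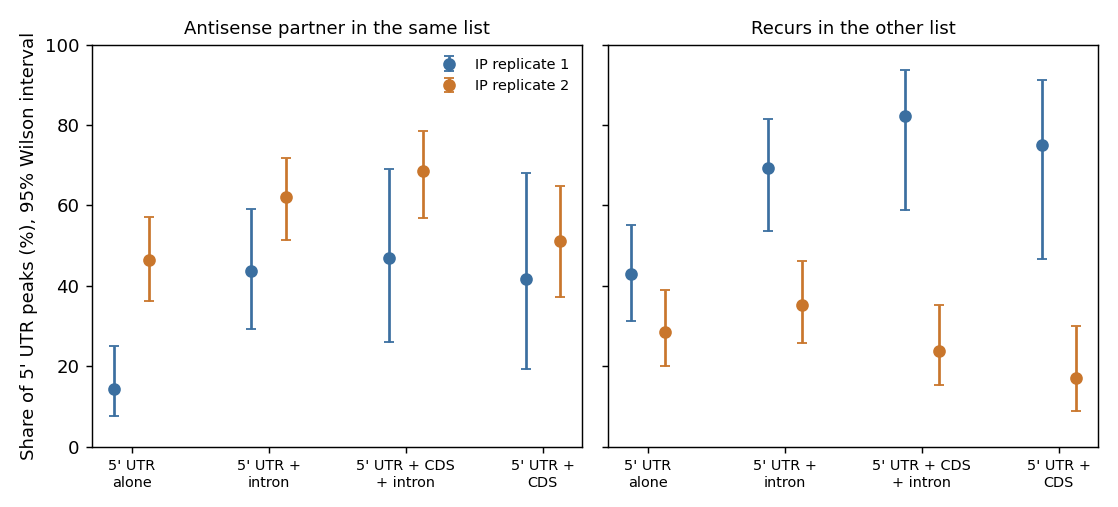
Share of 5' UTR peaks (y axis, %) with an antisense partner in the same list (left) and with a recurrent partner in the other list (right), by what the peak holds (x axis; CDS, coding sequence) and IP replicate; points are shares and lines 95% Wilson intervals. Peaks with 5' UTR alone in replicate 1, which include those that reach outside the annotated gene, stand lowest for antisense partners, at 14.3%, and lowest of that list for recurrence, at 42.9%.

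Some members reached outside the annotated gene, so that their fractions summed to less than the whole peak. This held for 18 of 132 members in replicate 1 and 24 of 282 in replicate 2, against 5 of 1068 and 8 of 3605 other sense peaks, at either end of the gene. A peak with 5' UTR lies near a gene's edge more often by the rule itself, so this contrast is a description. On the plus strand 40 of 240 members of both lists did so (16.7%, 12.5 to 21.9), and on the minus strand 2 of 174 (1.15%, 0.316 to 4.09), and what sets the strands apart was not tested. How the annotation step treated peaks at gene edges on each strand is not stated in the labels, so the fractions and strand shares may not be comparable between strands. Plus-strand peaks were 58.0% of members and 48.4% of other sense peaks; among peaks inside annotated genes the shares were 53.8% and 48.3%. Rad23b had 62% of its bin outside the gene. Without these peaks, a choice made after the values were seen, antisense partners were 16.8 points less common among members than among other sense peaks in replicate 1 (Fisher exact adjusted p = 0.0016) and 10.8 points less common in replicate 2 (Fisher exact adjusted p = 0.0014).

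Most members were the 5'-most sense peak of their gene. The 5' UTR lies at the 5' end of a gene, so this follows largely from the rule and is a description. In 66 members of replicate 1 and 89 of replicate 2 the gene had no other sense peak in that list, so the member was 5'-most by default. In genes with more sense peaks, the member was the 5'-most in 52 of 66 (78.8%, 67.5 to 86.9) and 153 of 193 (79.3%, 73.0 to 84.4). The smooth muscle gene Smtn was an exception: its replicate 2 member stood in place 6 of 11, at chromosome 14, 78410400 to 78410450, while its replicate 1 member was the first sense peak, at 78420700 to 78420750. The next sense peak downstream lay a median of 5100 nt away in replicate 1 and 4050 nt in replicate 2. Of the genes with a member, 47 of 119 in replicate 1 and 149 of 249 in replicate 2 also had a sense peak without 5' UTR.

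Both lists together named 292 genes, 119 in replicate 1 and 249 in replicate 2, with 76 in both; this is 63.9% of the first set and 30.5% of the second. Over all genes with a peak, 827 had any peak in both lists, 89.7% of those in replicate 1 and 45.5% of those in replicate 2. Counting any peak is a looser measure than a 5' UTR peak in both lists. By the looser measure, 105 of the 119 genes of replicate 1 had a peak in replicate 2. In the other direction, 150 of the 249 genes of replicate 2 had one in replicate 1. Taken as places, overlapping members of the same strand being counted once, there were 338, of which 76 had members of both lists, 56 of replicate 1 alone and 206 of replicate 2 alone. The lists differ in length. Counted by peak and not by place, 64.6% of all sense genic peaks of replicate 1 and 19.9% of those of replicate 2 recurred. In 41 genes there were 2 or more places, as the plot of later places by distance shows. The later place lay a median of 2300 nt from the 5'-most place of the gene, from 50 to 87000 nt, with 18 of 46 within 1000 nt. Of the 41 5'-most places, 25 held 5' UTR alone, 15 intron and 1 coding sequence, against 12, 23 and 16 of the 3'-most places, a place counting for both intron and coding sequence where it held both. In a transcript coding sequence follows the 5' UTR.

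**Figure D5:**
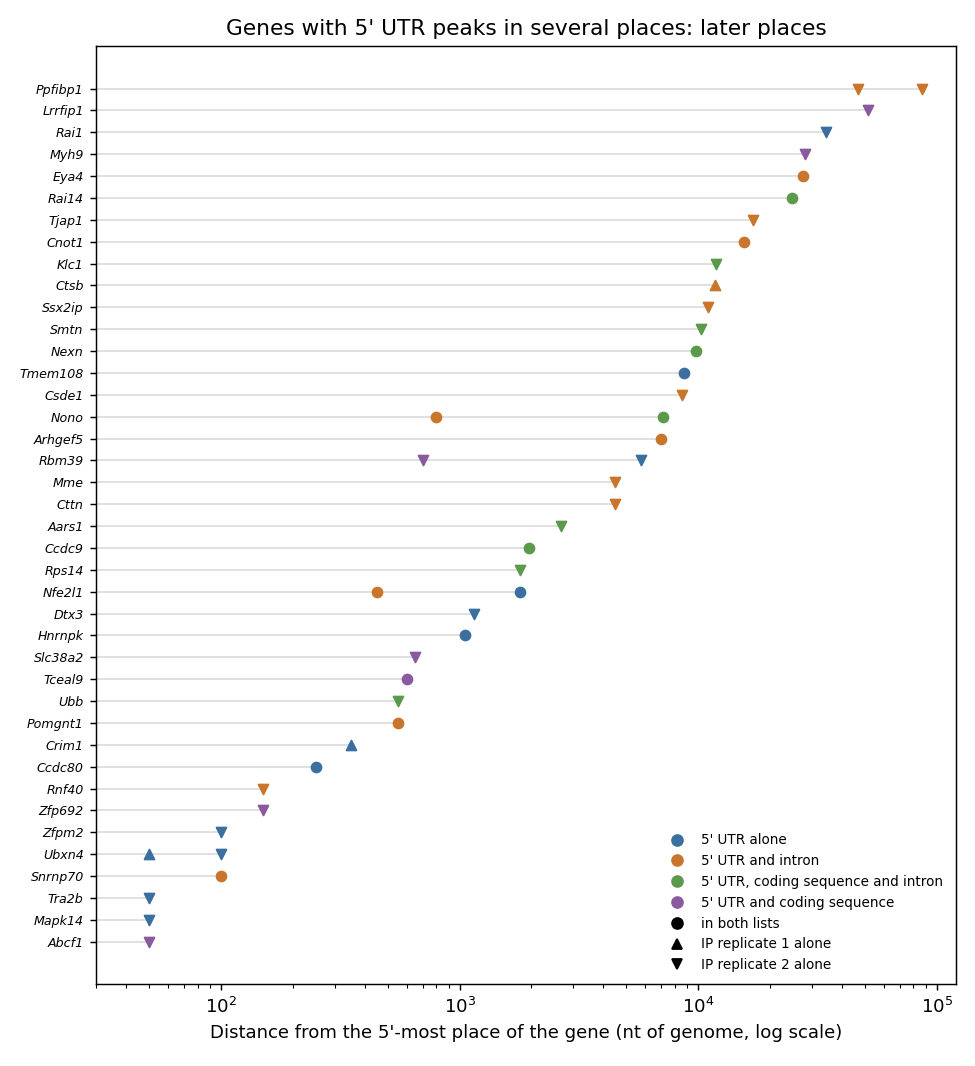
Distance in nt of genome (x axis, log scale) of each later 5' UTR place from the 5'-most place of its gene (y axis, 1 row per gene with a symbol); colour gives what the place holds, green also where the lists differ (Rai14), and the marker gives the lists. The farthest place, in Ppfibp1, lies 87000 nt from the first, and the nearest, in Tra2b, Mapk14, Abcf1 and Ubxn4, lie 50 nt away.

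Nfe2l1, the gene of a transcription factor for proteasome genes, had 3 places, and each recurred. From the 5' end they had 23, 29 and 32 tags in replicate 1 and 31, 24 and 26 in replicate 2, over 1800 nt. The paraspeckle gene Nono had 3 places over 7100 nt: the first, with 20 tags, was in replicate 1 alone, and the others had 22 and 20 tags in replicate 1 and 32 and 26 in replicate 2. In Rbm39, which encodes a U2AF-related splicing factor, the 5'-most of 3 places had 20 and 31 tags, and 2 more were in replicate 2 alone with 24 and 29. Eya4 had 20 and 32 tags at its first place, all in 5' UTR, and 33 and 40 at a boundary with intron 27500 nt on. Ccdc9 had 20 and 43 tags at the first place and 36 and 54 at the next, 1950 nt on. The nexilin gene Nexn, whose product binds actin in muscle, had 22 and 25 tags, and 30 and 34 tags 9800 nt on. In Nfe2l1 and Rbm39 the 3'-most place was 5' UTR alone, and in Nono, Ccdc9 and Nexn it held coding sequence and intron. Ppfibp1, the gene of liprin beta 1, had 31 and 23.5 tags at its first place and 53 and 26 tags at 2 later places in replicate 2 alone.

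In lists of genes by function, 15 splicing factor genes had a member, 28.8% of the 52 with any peak, beside 15.3% (292 of 1914) over all genes with a peak. Replicate 1 gave 12 of 38 with a peak in that list, beside 119 of 922 over all genes. Replicate 2 gave 11 of 51, beside 249 of 1819, so the pooled share does not stand for each list. A recurrent member was found in 7 of the 52, beside 71 of 1914 over all genes. Among the 15 genes were Tra2b, Srrm2, Srsf1, Srsf5, Srsf7, Snrnp70, Ddx46, Ewsr1, Hnrnpd, Hnrnpk, Hnrnpu, Pnn, Arglu1 and Srpk1. Snrnp70, which encodes a U1 snRNP protein, had 20 tags in replicate 1 and 55 in replicate 2 at chromosome 1, 95876150 to 95876200, with 0.18 of the bin in 5' UTR and 0.82 in intron. Another Snrnp70 place in replicate 2, all 5' UTR with 24 tags, began 100 nt upstream. In Hnrnpk, a poly(C)-binding protein gene, the recurrent peak had 30 and 33 tags and an upstream one 23 tags in replicate 2.

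Cytoskeleton and muscle genes followed with 10 of 36 (27.8%), of which 2, Pfn1 and Cfl1, recurred. The profilin gene Pfn1 had 29 and 38 tags in a bin with 0.98 5' UTR and 0.02 coding sequence. Actn1 had 58 tags in replicate 2 alone, all in 5' UTR, with 59 antisense. Myh9 had a member in each list at different positions, 26 tags in replicate 1 and 21 in replicate 2.

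Ribosomal protein genes had 9 of 47 with a peak (19.1%), 8 of them in replicate 2, led by Rpl5 with 36 tags and Rpl35 with 31. Rps14 had members with 28 and 30 tags at 2 places of replicate 2, and Rpl36 had 26. Rpl5 and Rpl35 were boundary peaks with 5' UTR, coding sequence and intron, and Rps15a was the 1 gene of the list with a recurrent member. Translation factor genes had 1 of 30 (3.33%), Eif5a, with 43 tags in replicate 2, and chromatin genes 2 of 28 (7.14%): the Polycomb methyltransferase gene Ezh2 with 19 and 28 tags, and Chd4, a remodelling ATPase gene, with 24 in replicate 1 alone.

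Matrix genes had 4 of 25 (16.0%). The lysyl oxidase-like gene Loxl1 had 27 tags in each list, all in 5' UTR, while the collagen gene Col4a2 (47 tags), the fibrillin gene Fbn1 (23) and Col5a1 (21) had members in replicate 2 alone. Chaperone and stress genes had 3 of 19 (15.8%). Canx, a lectin chaperone gene of the endoplasmic reticulum, had 29 and 36.5 tags, and Hspa5, the gene of the chaperone BiP, had 28 and 29, each mostly or wholly 5' UTR. Hsp90aa1 had 27 tags in replicate 2 at a bin with 0.02 5' UTR and 0.98 intron. The remaining lists had 1 gene each, in replicate 2 alone: the cytokine receptor subunit gene Il6st (24 tags) of 9 immune genes with a peak, the cell cycle inhibitor gene Cdkn1a (23 tags) of 6 early response genes, and the ubiquitin gene Ubb (23 and 24 tags at 2 places) of 8 ubiquitin and proteasome genes. These counts are descriptions without a test, and genes with more peaks have more chances of a member.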

How the data were processed

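Per the submitters' processing notes, HISAT2 and mRatBN7.2 were used. How peaks were called and filtered, and whether inputs were subtracted, was not given in the sources used here. Tags as deposited are a signal per peak, per the file headers and values, and the deposited p-value is the authors', used to rank peaks. Positions are as deposited; bins that touch were not counted as overlapping.

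Fractions were read from the deposited annotation. A two-sided Fisher exact test compared shares of peaks within a list, and a permutation test (100000 resamples) compared median log2 tags, with Benjamini-Hochberg adjustment over 9 comparisons, and both were tested on simulated data. Of 292 gene names, 286 matched a symbol and 3 a synonym of a RefSeq table (GRCr8, for names alone); 289 were protein-coding. Members and the 10 gene lists were chosen with earlier results of these data known. Genes were named by rule: the highest members of each list, kind and gene list, the best recurrent members, the longest, and genes with several places; others were chosen after their values were seen. Genome sequence and motifs were not used here. Tests ran in scipy 1.17.1 with numpy 2.4.6 and tables in pandas 2.3.3 under Python 3.11.15.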

Additional observations from a re-analysis of the deposited data

How the results depend on the processing

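Alternatives covered the 5' UTR fraction required, the better 50% of each list by p-value, 51-nt peaks alone, the comparison class, the overlap rule, the denominator and, added after seeing the data, peaks outside the gene, peaks without intron, touching bins and any opposite-strand partner. Of the values under alternatives, 65 kept direction and side of the threshold or, for a share without a test, stayed within its interval. A difference of 0 has no direction. The rest were 3 that lost their call, 2 that turned sign and 5 shares without a test that moved out of their interval. In replicate 2, the recurrence difference lost its call in the better 50% (6.16 percentage points) and on either strand (5.06), and the antisense difference in the better 50% (-9.09). Results that did not pass turned sign in replicate 1: recurrence among peaks without intron (4.79 points) and tags in the better 50% (-0.025 on the log2 scale). The cause was not tested. Over both lists, 49.5% of members held intron, 48.3% had an antisense partner and 35.5% held 5' UTR alone. Leaving out each replicate in turn gave 42.4% to 52.8%, 29.5% to 57.1% and 29.8% to 47.7%. Except for the intron share without replicate 1, these values lay outside the interval of the pooled share, so the pooled shares do not stand for each list. Recurrence needs both lists, so no replicate could be left out there. No paired analysis was possible because the inputs were not analysed here and each result lies within the IP lists. Peaks below the lowest called tags are not in the lists, and unknown depth limits any reading of list length.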
